A study of Drosophila melanogaster with 4 samples.

Results

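The genes described here are 9 genes of insulin signalling and growth control, *InR*, *chico*, *Pi3K92E*, *foxo*, *Thor*, *Ilp6*, *ImpL2*, *S6k* and *tobi*, taken by name from the 13568 genes that RefSeq names in the deposited tables. RNA of larvae in the third instar, the last larval stage, was sequenced in 4 rRNA-depleted libraries. The 2 HP1a mutant libraries came from larvae that carried allele 04 of *Su(var)205*, the gene for HP1a, over its allele 05. These larvae were the progeny of parents with GFP-marked balancer chromosomes and were picked because they showed no GFP. The 2 wildtype libraries came from larvae of the Oregon R strain. Stocks were kept at 25°C and 70% humidity, and the design text calls the duplicates biological samples. The mutant alleles were not placed in the Oregon R background as far as the sources used here say, so genotype and strain background cannot be told apart. All values are FPKM (fragments scaled to transcript length and to the mapped fragments of the library), summed over the RefSeq transcripts of a gene. Because RNA was taken from larvae and not from sorted cells, fewer cells that express a gene and less RNA per cell cannot be told apart. FPKM is also relative to the mapped fragments of its library, so it gives no absolute amount of RNA.

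In the insulin pathway of the fly, insulin-like peptides bind a single receptor, which signals through an adaptor protein and a phosphoinositide 3-kinase to the kinase Akt. Active Akt keeps the transcription factor FOXO out of the nucleus and raises the activity of the kinase TOR, so that well-fed larvae grow. When nutrients run short, FOXO enters the nucleus and raises the transcription of genes such as *Thor* and *InR*, and TOR no longer drives protein synthesis through S6 kinase. Secreted proteins that bind the peptides, such as ImpL2, tune this system, and the fat body serves as the organ that links nutrition to growth.

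Expression of *tobi* rose in the HP1a mutant larvae, while that of *Ilp6* and *foxo* fell. The fall of *foxo* was close to that of the median gene, and the other 6 genes did not pass the test. All 9 genes were expressed above the cutoff (mean log2(FPKM + 1) above 1.4) with an estimate of status OK in each of the 4 libraries, and all 9 were tested. In limma's moderated test on log2(FPKM + 1), with Benjamini-Hochberg adjustment over 9447 genes and an FDR of 0.01, 3 of the 9 genes passed, 1 higher and 2 lower in the HP1a mutant. Of all tested genes, 41.4% passed, 6.98% higher and 34.4% lower, so the count among the 9 genes was not above the background. The HP1a mutant libraries did not overlap the wildtype libraries for any of the 9 genes, 8 of which were lower and 1 higher. Of all tested genes, however, 86.4% did not overlap either, 69.1% with the HP1a mutant lower and 17.3% with it higher. The median log2 fold change of the 9 genes was -0.72, against -0.84 over all tested genes.

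This general shift bears on every value below. The median gene was at 4.39 and 3.66 FPKM in the HP1a mutant libraries and at 8.72 and 9.46 FPKM in the wildtype libraries. In an alternative, every library was scaled to a common median, which put the median log2 fold change at -0.02 ("rescaled" hereafter). Then 1 of the 9 genes passed (*tobi*, higher), where 22.6% of all tested genes passed, 12.5% higher and 10.1% lower. With quantile normalization, 1 of the 9 passed (*tobi* again), against 20.5% of all tested genes, 11.0% higher and 9.54% lower. The fold changes of *chico*, *Pi3K92E*, *ImpL2* and *S6k* changed sign under both scalings, and that of *Thor* changed sign with the rescaling only. None of these genes passed the FDR under any of the 3 scalings.

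The libraries differed in other respects as well. The deposited bounds imply between 7329659 and 7663636 fragments per library. By other measures the libraries were less alike, since 1532 and 1942 transcripts had the status LOWDATA in the HP1a mutant libraries, against 966 and 926 in the wildtype libraries. The targeted gene *Su(var)205* was at 27.8 and 20.1 FPKM in the HP1a mutant libraries, against 125 and 137 FPKM in the wildtype libraries (log2 fold change -2.42, standard error 0.22, adjusted p = 0.00275 in limma). Salivary glue genes, which mark the end of the last larval stage, summed to 78.1 and 498 FPKM over 7 genes in the HP1a mutant libraries, against 50436 and 53935 FPKM in wildtype. All 7 were lower in the HP1a mutant without overlap (as were 69.1% of all tested genes). Fat body markers gave no single direction. 5 of 7 were higher in the HP1a mutant without overlap (17.3% of all tested genes were), and 2 were lower. *Fbp1*, a receptor for the storage proteins that appears late in the instar, was at 32.5 and 19.0 FPKM in the HP1a mutant and at 4333 and 4127 FPKM in wildtype. *Lsp2* was at 2726.7 and 4432.9 FPKM in the HP1a mutant and at 9321.5 and 7758.4 FPKM in wildtype. The 5 higher ones included *Lsp1alpha*, at 5745 and 6949 FPKM in the HP1a mutant and 1088 and 853 FPKM in wildtype. Of the 7, 4 passed the FDR higher and 1 lower (*Fbp1*) in limma, beside 6.98% and 34.4% of all tested genes. The 7 summed to 31070 and 46143 FPKM in the HP1a mutant and 24506 and 22375 FPKM in wildtype. Summed over their lists, muscle markers were at 9982 and 8651 FPKM in the HP1a mutant and 1837 and 2084 FPKM in wildtype, and neuronal markers at 21.9 and 18.7 FPKM in the HP1a mutant and 40.2 and 44.6 FPKM in wildtype. The sums of the hemocyte markers overlapped, at 158 and 80.4 FPKM in the HP1a mutant and 110 and 114 FPKM in wildtype. By gene, 3 of these 6 were lower in the HP1a mutant without overlap and 1 was higher, beside 69.1% and 17.3% of all tested genes. The part of larval stage and tissue makeup in the results below was not tested.

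**Figure D1:**
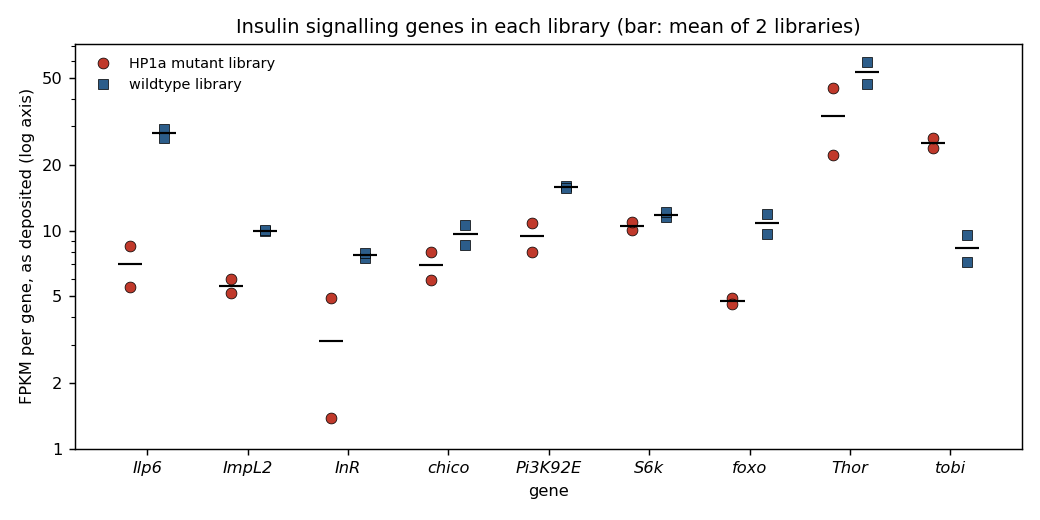
FPKM of the 9 genes (log axis) in each HP1a mutant library (circles) and each wildtype library (squares), with bars at the mean of 2 libraries. *Ilp6* stood at 5.54 and 8.48 FPKM in the HP1a mutant against 29.2 and 26.6 FPKM in wildtype, *tobi* ran the other way, and the *InR* and *Thor* circles lie far apart from each other.

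*Ilp6* fell the most of the 9 genes. It encodes an insulin-like peptide that the fat body makes, which is best known for sustaining growth once larvae stop feeding. On the X chromosome (genome Release 5, 2225526 to 2227719, covering 3 transcripts), *Ilp6* had 5.54 and 8.48 FPKM in the HP1a mutant libraries, against 29.2 and 26.6 FPKM in the wildtype libraries. Both HP1a mutant values were far below both wildtype values, with a mean of 7.01 ± 2.08 FPKM in the HP1a mutant and 27.9 ± 1.87 FPKM in wildtype (SD, n = 2 each), so that wildtype was 3.98-fold higher. The fall was -1.88 on the log2 scale (standard error 0.24, adjusted p = 0.00450 in limma). The fall was also larger than that of the median gene, but it no longer passed when that shift was taken out (log2 fold change -1.02 and adjusted p = 0.0556 rescaled, -1.14 and adjusted p = 0.0301 with quantile normalization, both in limma). The call was lost in limma without wildtype replicate 1 (adjusted p = 0.0529) and without wildtype replicate 2 (adjusted p = 0.0509), settings in which 0 of all tested genes passed and 4465 and 4344 had an unadjusted p under 0.05. Over its 15 alternatives, its adjusted p in limma ran between 0.00297 and 0.0556.

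The fall of *Ilp6* was uneven over its transcripts. NM_130644, the one with the longest span, was at 1.22 and 1.62 FPKM in the HP1a mutant and at 16.1 and 15.6 FPKM in wildtype. It made up 22.05% and 19.1% of the summed *Ilp6* FPKM in the HP1a mutant, against 54.9% and 58.7% in wildtype. NM_001201609 was at 2.28 and 4.44 FPKM in the HP1a mutant and at 9.91 and 7.69 FPKM in wildtype. NM_001201610 differed least, with 2.04 and 2.42 FPKM in the HP1a mutant and 3.28 and 3.31 FPKM in wildtype. In a limma fit of each transcript on its own, which was added after the gene values were seen and has no filter on low values, 6 of 18784 transcripts passed (0.0319%). None of the *Ilp6* transcripts was among them, and NM_130644 came closest (log2 fold change -2.80 with a standard error of 0.22, adjusted p = 0.0120 in limma).

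*Ilp6* was the most abundant insulin-like peptide gene in wildtype larvae, but not in both HP1a mutant libraries. Over the 8 peptide genes, *Ilp6* accounted for 20.3% and 28.9% of the summed FPKM in the HP1a mutant libraries, against 51.4% and 58.0% in the wildtype libraries. The other 7 peptide genes together had 21.7 and 20.9 FPKM in the HP1a mutant and 27.6 and 19.2 FPKM in wildtype, which overlap. *Ilp2* and *Ilp5*, which the insulin-producing cells of the brain express, overlapped between genotypes. *Ilp2* had 5.06 and 5.498 FPKM in the HP1a mutant and 5.99 and 3.31 FPKM in wildtype, and *Ilp5* had 7.03 and 4.29 FPKM in the HP1a mutant and 6.71 and 4.37 FPKM in wildtype.

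*Ilp3*, the other peptide of those brain cells, had 1.04 and 1.94 FPKM in the HP1a mutant and 5.84 and 4.38 FPKM in wildtype. Its libraries did not overlap, but it did not pass the FDR (log2 fold change -1.31, adjusted p = 0.0151 in limma). *Ilp8*, a relaxin-like peptide that growing or damaged discs release and that delays pupariation, had 8.41 and 7.86 FPKM in the HP1a mutant and 8.63 and 6.73 FPKM in wildtype. *Ilp1*, *Ilp4* and *Ilp7* were each listed below 1 FPKM in all 4 libraries, and at 0 in at least 1 of them. The receptor *Lgr3*, through which Ilp8 acts in neurons, showed the largest difference of this list, with 0.103 and 0.106 FPKM in the HP1a mutant against 11.1 and 12.1 FPKM in wildtype (log2 fold change -3.51, standard error 0.18, adjusted p = 0.00211 in limma).

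**Figure D2:**
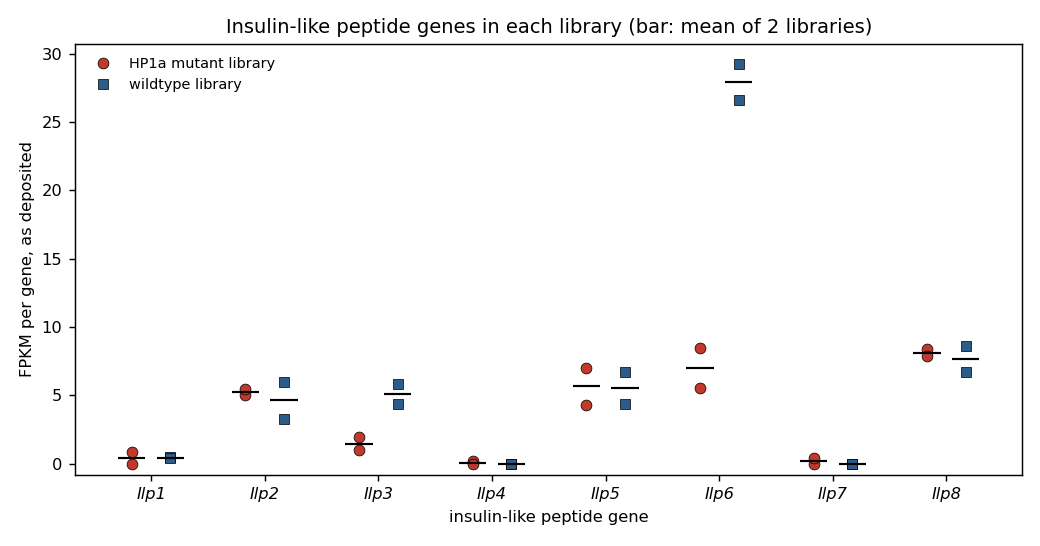
FPKM of the 8 insulin-like peptide genes in each HP1a mutant library (circles) and each wildtype library (squares), with bars at the mean of 2 libraries. The genotypes are far apart for *Ilp6* and separate for *Ilp3*, and they overlap for *Ilp2*, *Ilp5* and *Ilp8*.

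*ImpL2* encodes a secreted immunoglobulin-domain protein that binds insulin-like peptides and restrains their action, and it was first found as a gene induced by the steroid hormone ecdysone. As a sum over its 3 transcripts (3L, 4224705 to 4236147) it had 5.99 and 5.16 FPKM in the HP1a mutant libraries, against 9.95 and 10.03 FPKM in the wildtype libraries. The groups did not overlap, but the fall was close to that of the median gene. The log2 fold change of -0.74 (standard error 0.16) did not pass the FDR (adjusted p = 0.0165 in limma), and it was 0.07 rescaled and 0.22 with quantile normalization. The ratio of *Ilp6* to *ImpL2* FPKM was 0.925 and 1.64 in the HP1a mutant and 2.94 and 2.65 in wildtype.

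The sum hides transcripts of *ImpL2* that moved in opposite directions. NM_079197, which spans 11443 bases and starts farthest from the shared end of the locus, was at 2.69 and 3.49 FPKM in the HP1a mutant, against 0.211 and 0.302 FPKM in wildtype. The deposited bounds for it ran over 1.57 to 3.82 and 2.19 to 4.79 FPKM in the HP1a mutant, and over 0 to 0.539 and 0 to 0.688 FPKM in wildtype, so that they did not overlap between genotypes. These bounds cover counting error within a library only. They leave out the error of assigning fragments to transcripts and the spread between larvae.

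NM_168069, which spans 2566 bases, went the other way, with 2.90 and 1.33 FPKM in the HP1a mutant and 8.73 and 9.23 FPKM in wildtype. NM_079197 thus held 44.9% and 67.7% of the *ImpL2* FPKM in the HP1a mutant, against 2.12% and 3.01% in wildtype, and NM_168069 held 48.5% and 25.9% in the HP1a mutant against 87.8% and 92.0% in wildtype. In the fit by transcript, the log2 values were 1.70 ± 0.20 for NM_079197 (standard error, adjusted p = 0.0136 in limma) and -1.72 ± 0.34 for NM_168069 (standard error, adjusted p = 0.0296 in limma). Neither passed the FDR, which 0.0319% of all transcripts did. Both kept their sign in that fit when rescaled, at 2.26 for NM_079197 (adjusted p = 0.0159 in limma) and -0.81 for NM_168069 (adjusted p = 0.161 in limma), where the fall of NM_168069 was much smaller than as deposited. Implied fragments for NM_079197 were few, at 22.9 and 28.7 in the HP1a mutant and 1.66 and 2.44 in wildtype.

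**Figure D3:**
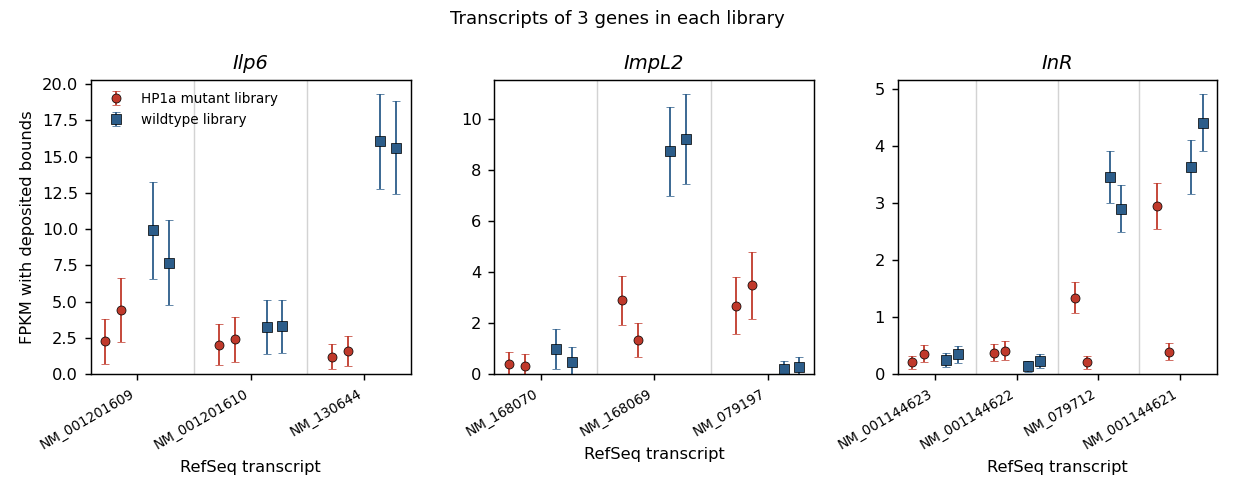
FPKM of each RefSeq transcript of *Ilp6*, *ImpL2* and *InR* in the HP1a mutant libraries (circles) and the wildtype libraries (squares), with the deposited lower and upper bounds as error bars. For *ImpL2*, NM_079197 is higher in the HP1a mutant (2.69 and 3.49 against 0.211 and 0.302 FPKM), whereas NM_168069 is lower, and for *InR* the HP1a mutant libraries differ from each other in the transcripts with the longer spans.

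*InR* encodes the insulin receptor, a tyrosine kinase at the cell surface. It spans 17398221 to 17445043 on 3R and has 4 transcripts. Its FPKM was 4.88 and 1.38 in the HP1a mutant libraries, against 7.48 and 7.90 in the wildtype libraries. The HP1a mutant libraries lay below the wildtype libraries but differed from each other 3.54-fold, a larger replicate gap on the log2 scale than 95.2% of the tested genes had. *InR* accordingly did not pass (log2 fold change -1.22, standard error 0.47, adjusted p = 0.0794 in limma). A single library set the size of the fall. Without HP1a mutant replicate 2 the log2 fold change was -0.56 (adjusted p = 0.0422 in limma), and without HP1a mutant replicate 1 it was -1.87 and passed (adjusted p = 0.00421 in limma, where the spread of the single remaining mutant library is assumed from the wildtype ones). Over all alternatives, the adjusted p of *InR* in limma ran between 0.00421 and 0.757.

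The gap between the HP1a mutant libraries lay in the *InR* transcripts with the longer spans, NM_079712 and NM_001144621, which reach over 46538 and 46823 bases. Together they had 4.29 and 0.604 FPKM in the HP1a mutant, against 7.09 and 7.31 FPKM in wildtype. The transcripts with the shorter spans had 0.592 and 0.774 FPKM in the HP1a mutant and 0.389 and 0.589 FPKM in wildtype. The shorter ones therefore made up 12.1% and 56.2% of *InR* FPKM in the HP1a mutant, against 5.19% and 7.45% in wildtype. None of the 4 transcripts passed in the fit by transcript.

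Downstream of the receptor, *chico* encodes the adaptor that the receptor phosphorylates, and *Pi3K92E* encodes the catalytic subunit of the phosphoinositide 3-kinase that the adaptor recruits. *chico* (2L, 10242512 to 10247064) had 7.997 and 5.96 FPKM in the HP1a mutant libraries and 8.59 and 10.6 FPKM in the wildtype libraries. The libraries did not overlap, but the difference of -0.41 on the log2 scale did not pass (standard error 0.22, adjusted p = 0.154 in limma), and it was 0.41 rescaled. *Pi3K92E* (3R, 16454694 to 16460430) had 10.9 and 7.94 FPKM in the HP1a mutant and 16.0 and 15.7 FPKM in wildtype, which do not overlap. It did not pass either (log2 fold change -0.71 with a standard error of 0.20, adjusted p = 0.0354 in limma), and its fall was close to that of the median gene. It passed in 1 of 15 alternatives, without HP1a mutant replicate 1 (adjusted p = 0.00805 in limma), and its adjusted p otherwise reached up to 0.638.

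Both genes are listed with a pair of transcripts that share the same start and end. For *Pi3K92E*, NM_142645 had 8.55 and 5.94 FPKM in the HP1a mutant and 7.26 and 9.92 FPKM in wildtype, which overlap. NM_169910 had 2.33 and 2.00 FPKM in the HP1a mutant and 8.79 and 5.75 FPKM in wildtype, which do not. The share of NM_169910 was 21.4% and 25.2% in the HP1a mutant and 54.8% and 36.7% in wildtype. Its log2 fold change of -1.36 did not pass in the fit by transcript (adjusted p = 0.0347 in limma).

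*S6k* encodes the kinase that TOR activates and that phosphorylates ribosomal protein S6. On 3L (5792049 to 5804057, 1 transcript) it had the smallest fold change of the 9 genes, with 10.1 and 10.9 FPKM in the HP1a mutant libraries and 11.5 and 12.2 FPKM in the wildtype libraries. The libraries did not overlap, but they nearly touched, and they differed by -0.16 on the log2 scale (standard error 0.15, adjusted p = 0.391 in limma). Since most genes fell, *S6k* ranked above 74.0% of the tested genes by fold change, and its log2 fold change was 0.69 with the libraries rescaled (adjusted p = 0.0407 in limma, not past the FDR). The locus overlaps that of *CG42272* over 2717 bases, and since use of strand is not stated, fragments could be shared between them.

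*Thor* encodes 4E-BP, which binds the cap-binding protein eIF4E and holds back translation until TOR phosphorylates it, and its gene is a textbook target of FOXO. It lies on 2L (3478434 to 3479612, 1 transcript) and had the highest mean of the 9 genes in both genotypes. It had 45.1 and 22.2 FPKM in the HP1a mutant libraries, from 219 and 104 implied fragments, against 46.8 and 59.4 FPKM in the wildtype libraries, from 210 and 273 implied fragments. HP1a mutant replicate 1 was next to the lower wildtype library, and only replicate 2 was well below. The log2 fold change of -0.72 (standard error 0.39) did not pass (adjusted p = 0.166 in limma). It was -0.22 without HP1a mutant replicate 2 and -1.21 without HP1a mutant replicate 1, where it passed (adjusted p = 0.00998 in limma, at most 0.652 over all alternatives). With the libraries rescaled it was 0.19, and with quantile normalization -0.36.

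*foxo* encodes the transcription factor itself. The 3 transcripts named *foxo* (3R, 9882690 to 9913698) had 4.93 and 4.59 FPKM in the HP1a mutant libraries, against 9.62 and 11.97 FPKM in the wildtype libraries. Both HP1a mutant values were below both wildtype values, and the replicates were closer to each other in the HP1a mutant than in wildtype. The difference was -1.03 on the log2 scale (standard error 0.18), and *foxo* passed narrowly (adjusted p = 0.00945 in limma). It passed in 3 of 15 alternative settings, in which its adjusted p ran from 0.00943 to 0.749 in limma. The deposited tables hold 2 more transcripts over the same locus that the RefSeq table used here does not name, and with these added, *foxo* was at 9.36 and 7.11 FPKM in the HP1a mutant and 14.7 and 16.2 FPKM in wildtype (log2 fold change -0.84, adjusted p = 0.0198 in limma). The log2 fold change of -1.03 for the 3 named transcripts was close to the -0.84 of the median gene. With the libraries rescaled it was -0.22 (adjusted p = 0.341 in limma), and with quantile normalization -0.07 (adjusted p = 0.749 in limma).

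The split of *foxo* over its transcripts was not stable. NM_142073 was at 0.772 and 2.06 FPKM in the HP1a mutant and at 3.52 and 0.823 FPKM in wildtype. The deposited bounds for the wildtype libraries, 2.86 to 4.17 and 0.509 to 1.14 FPKM, did not overlap, so that replicates of the same genotype differed by more than the bounds cover. NM_206482 was at 2.97 and 1.93 FPKM in the HP1a mutant and at 4.68 and 7.24 FPKM in wildtype. Its bounds did not overlap between genotypes, at 2.33 to 3.61 and 1.41 to 2.46 FPKM in the HP1a mutant and 3.85 to 5.52 and 6.22 to 8.27 FPKM in wildtype. It did not pass in the fit by transcript (log2 fold change -1.003, adjusted p = 0.0843 in limma), and neither did NM_142073 (adjusted p = 0.707) or NM_206483 (adjusted p = 0.194).

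*tobi*, whose name stands for target of brain insulin, encodes an alpha-glucosidase-like enzyme, and its expression is known to respond to insulin-like peptides and to adipokinetic hormone. It was the only gene of the 9 that was higher in the HP1a mutant. On 3R (21170483 to 21172634, 1 transcript), *tobi* had 23.9 and 26.5 FPKM in the HP1a mutant libraries, from 398 and 425 implied fragments, against 9.502 and 7.21 FPKM in the wildtype libraries, from 146 and 114. The genotypes were well apart, with a mean of 25.2 ± 1.84 FPKM in the HP1a mutant and 8.35 ± 1.62 FPKM in wildtype (SD, n = 2 each), a ratio of 3.02. On the log2 scale, the difference was 1.496 (standard error 0.20, adjusted p = 0.00477 in limma), above 93.4% of the tested genes. It was larger, and passed, when rescaled (2.35, adjusted p = 0.00412 in limma) and with quantile normalization (2.25, adjusted p = 0.00490 in limma). Without HP1a mutant replicate 2 it was 1.42 and missed the FDR (adjusted p = 0.0110 in limma), and it also missed it without wildtype replicate 1 (adjusted p = 0.0439) and without wildtype replicate 2 (adjusted p = 0.0615). It passed in the other 12 of its 15 alternatives, at an adjusted p down to 0.00404 in limma. The locus shares 78 bases with that of *rha*.

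**Figure D4:**
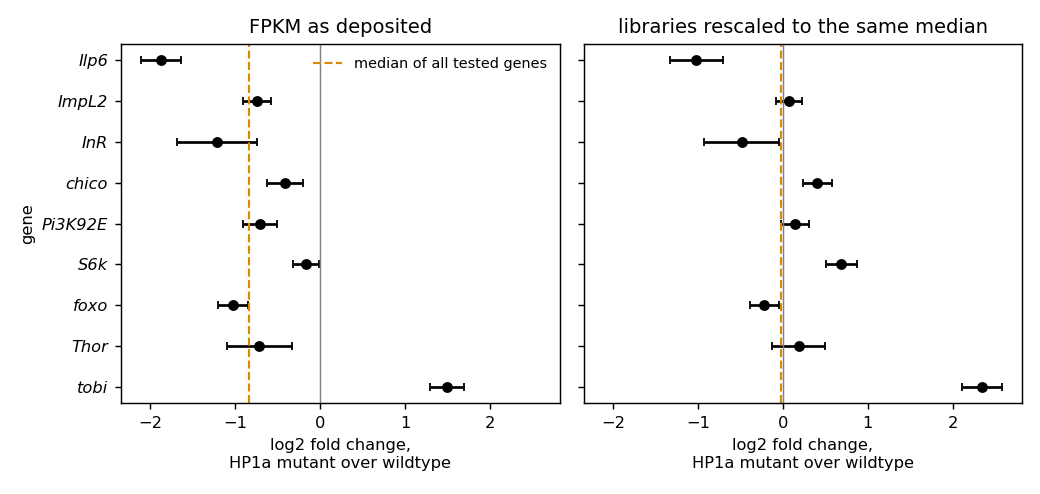
Log2 fold change (HP1a mutant over wildtype) of the 9 genes with its standard error from limma, for FPKM as deposited (left) and with a common median set for the libraries (right). The dashed line marks the median of all tested genes, at -0.84 on the left and -0.02 on the right. *tobi* lies to the right and *Ilp6* to the left of that line in both panels, and *chico*, *Pi3K92E*, *S6k*, *Thor* and *ImpL2* change sign between the panels.

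The order of the 9 genes by FPKM, which is scaled to transcript length, differed between the genotypes. In the HP1a mutant, *Thor* and *tobi* came first, at means of 33.7 and 25.2 FPKM, and their libraries overlapped. A gap separated *tobi* from *S6k*, *Pi3K92E*, *Ilp6*, *chico* and *ImpL2*, at means between 10.5 and 5.57 FPKM, each of which overlapped the next in order. *foxo* and *InR* came last, at 4.76 and 3.13 FPKM, and overlapped each other. In wildtype, *Thor* (53.1 FPKM), *Ilp6* (27.9 FPKM) and *Pi3K92E* (15.9 FPKM) were each separate from the next gene. *S6k*, *foxo*, *ImpL2*, *chico*, *tobi* and *InR* followed at means between 11.8 and 7.69 FPKM, each overlapping the next.

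Other genes of the pathway were lower or did not pass. Of 54 further genes for peptides, binding proteins, the relay from the receptor to Akt, TOR complexes and nutrient sensing, 52 were found and 45 tested. 11 of these were lower in the HP1a mutant and none was higher (0 genes), where 34.4% of all tested genes were lower and 6.98% higher. Their median log2 fold change was -0.80, close to the -0.84 of all tested genes. With the libraries rescaled, 1 of the 45 passed (*Lgr3*, lower), beside 22.6% of all tested genes. With the highest transcript standing for each gene, 7 of the 45 passed in limma, beside 3153 of 9285 genes tested that way. The count also changed with the library left out, as did that of all tested genes.

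Most of the lower genes belonged to the relay from the receptor to Akt. There 7 of 14 tested genes were lower, beside 34.4% of all tested genes. All 14 lay below wildtype without overlap (69.1% of all tested genes did). *Akt*, the kinase in the middle of the pathway, had 13.1 and 12.9 FPKM in the HP1a mutant and 39.4 and 39.9 FPKM in wildtype (log2 fold change -1.54, standard error 0.15, adjusted p = 0.00293 in limma). *Pdk1*, the kinase that activates Akt, had 21.6 and 19.8 FPKM in the HP1a mutant and 54.3 and 55.8 FPKM in wildtype. On the log2 scale, the change was -1.37 for *Pdk1*, -1.46 for *drk*, an adaptor that binds receptor tyrosine kinases, and -1.36 for *sgg*, the glycogen synthase kinase 3 that Akt inhibits. The median of this list was -1.12. With the libraries rescaled, 0 of its 14 genes passed in limma, beside 22.6% of all tested genes. Rescaled, *Akt* had -0.66 (adjusted p = 0.0345 in limma).

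Among the TOR complex and nutrient sensing genes, 3 of 25 tested genes were lower and 0 higher in limma, a smaller share than the 34.4% of all tested genes that were lower. The median log2 fold change was -0.69. *Nprl2*, part of a complex that restrains TOR when amino acids are short, had 4.84 and 5.15 FPKM in the HP1a mutant and 14.7 and 17.9 FPKM in wildtype (log2 fold change -1.52). *Sin1*, a subunit of the TOR complex that phosphorylates Akt, had -1.35, and *Wdr59*, part of a complex that counters that of Nprl2, had -1.12. The other 22 did not pass. With the libraries rescaled, 0 of the 25 passed in limma, beside 22.6% of all tested genes.

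Of 15 tested genes for translation and growth outputs, 4 were lower and 0 higher in limma, a share below the 34.4% lower among all tested genes. All 4 were cognates of eIF4E, the protein that 4E-BP binds. *eIF4E4* had 1.23 and 1.85 FPKM in the HP1a mutant and 34.1 and 42.7 FPKM in wildtype (log2 fold change -3.96, standard error 0.22, adjusted p = 0.00211 in limma). Changes of -2.67 for *eIF4E5*, -1.74 for *eIF4E7* and -1.51 for *eIF4E3*, which serves in spermatogenesis, followed on the log2 scale. When rescaled, 2 of the 15 passed, both lower (*eIF4E4* and *eIF4E5*), beside 10.1% lower among all tested genes. The canonical gene *eIF4E1*, named here after its values were seen, had 115 and 65.3 FPKM in the HP1a mutant and 142 and 143 FPKM in wildtype and did not pass (adjusted p = 0.107 in limma). Testis markers moved in the same direction. All 8 of them were lower in the HP1a mutant without overlap (as were 69.1% of all tested genes), with sums of 10.5 and 7.96 FPKM in the HP1a mutant and 38.1 and 52.8 FPKM in wildtype, and their part in the fall of the eIF4E genes was not tested.

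Genes of the fasting response, including several that FOXO is known to activate, had 6 of 15 lower and 0 higher in limma, where 34.4% of all tested genes were lower. Their median log2 fold change was -0.68. The largest falls were in autophagy genes. *Atg8b* had 2.18 and 1.98 FPKM in the HP1a mutant and 29.7 and 35.6 FPKM in wildtype (log2 fold change -3.45, standard error 0.17, adjusted p = 0.00211 in limma). *Atg1*, the kinase that starts autophagy, had 5.43 and 3.20 FPKM in the HP1a mutant and 19.6 and 18.4 FPKM in wildtype (-1.95). *Atg9* (-1.69) and *Atg8a* (-1.24) fell less. Rescaled, *Atg1*, *Atg9* and *Atg8a* were at -1.13, -0.80 and -0.32 and did not pass. Testis markers were lower in the HP1a mutant as well, and their part in the fall of *Atg8b* was not tested. With the libraries rescaled, 1 of the 15 was lower (*Atg8b*, -2.67) and 1 higher, beside 10.1% lower and 12.5% higher among all tested genes. The higher one was *Sod2*, the mitochondrial superoxide dismutase, named here after its values were seen, with 159 and 113 FPKM in the HP1a mutant and 64.2 and 69.4 FPKM in wildtype. Its log2 fold change was 0.996 as deposited (adjusted p = 0.0194 in limma) and 1.91 rescaled (adjusted p = 0.00334 in limma).

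Genes of adipokinetic hormone signalling and of fat and sugar storage included some that rose. Of 16 tested, 3 were higher and 1 lower, where 6.98% of all tested genes were higher and 34.4% lower. When rescaled, 6 were higher and 0 lower in limma, beside 12.5% higher and 10.1% lower among all. *FASN1*, a fatty acid synthase, had 162 and 114 FPKM in the HP1a mutant and 20.4 and 29.2 FPKM in wildtype (log2 fold change 2.43, standard error 0.28, adjusted p = 0.00383 in limma). *Tps1*, which makes the blood sugar trehalose, had 74.9 and 89.4 FPKM in the HP1a mutant and 23.5 and 26.0 FPKM in wildtype (1.69). *Glyp*, glycogen phosphorylase, had 413 and 447 FPKM in the HP1a mutant and 134 and 137 FPKM in wildtype (1.66). *Sirt1*, a protein deacetylase, was the lower gene (-1.11).

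The alpha-glucosidase genes to which *tobi* is related were mostly higher as well. Of 8 tested, 5 were higher and 1 lower, beside 6.98% higher and 34.4% lower among all tested genes. The same count of 5 was higher with the libraries rescaled, beside 12.5% higher among all tested genes. *Mal-A3* had 294 and 126 FPKM in the HP1a mutant and 8.46 and 5.60 FPKM in wildtype (log2 fold change 4.62, standard error 0.47, adjusted p = 0.00319 in limma). *Mal-A4* (3.95), *Mal-A2* (2.87) and *Mal-A1* (2.37) rose as well on the log2 scale. *Mal-A5* was lower, with 24.1 and 39.0 FPKM in the HP1a mutant and 94.6 and 94.1 FPKM in wildtype (-1.59). The Mal-A genes are similar copies, so that fragments could be divided among them. Midgut markers moved with *tobi* and these genes, since 8 of 9 were higher in the HP1a mutant without overlap (17.3% of all tested genes were). Of the 9, 2 passed the FDR in limma, as deposited and rescaled. The midgut markers summed to 11573 and 16565 FPKM in the HP1a mutant and 6431 and 9494 FPKM in wildtype. Their part in the rise of *tobi* was not tested.

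**Figure D5:**
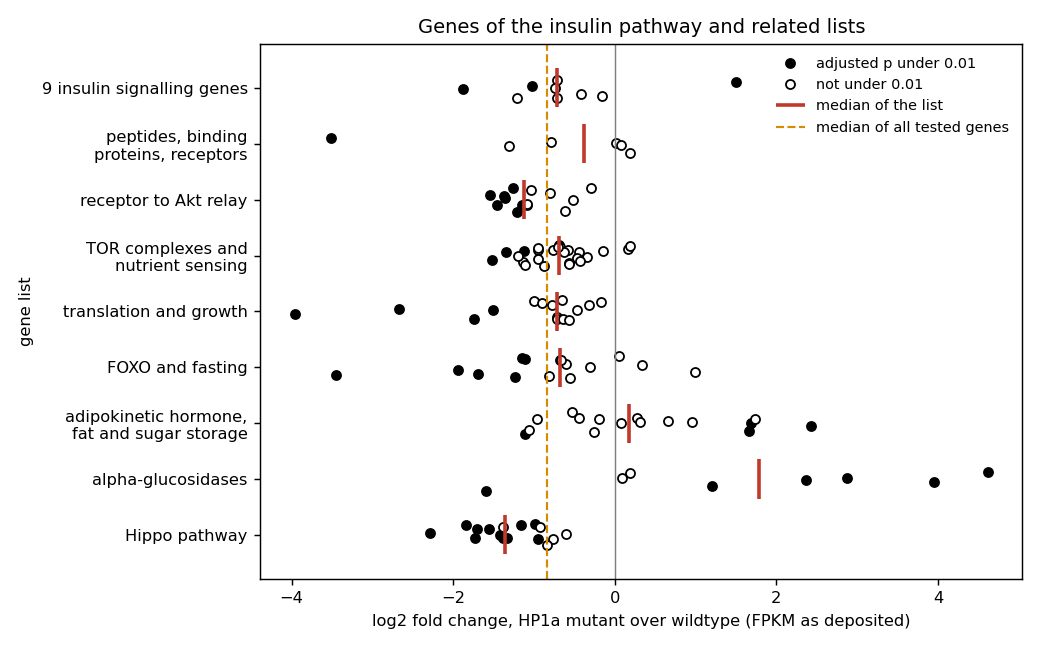
Log2 fold change (HP1a mutant over wildtype, FPKM as deposited) of each tested gene of the insulin pathway and related lists, filled where the adjusted p in limma was under 0.01, with a red bar at the median of the list and a dashed line at -0.84, the median of all tested genes. The alpha-glucosidase genes lie mostly to the right of the line, at a median of 1.78, and the Hippo pathway genes mostly to its left, at a median of -1.36.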

How the data were processed

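Total RNA of larvae in the third instar was sequenced by the authors from rRNA-depleted libraries, and the submitters' processing notes name TopHat and Cufflinks, without versions. For each RefSeq transcript and library, the authors deposited an FPKM value, its bounds and a status, and did not pool replicates. How strand was treated is not given in the sources used here. Scaffold names are those of genome Release 5, whose coordinates are printed. The paper's count tools were not used, because the deposited values are FPKM.

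RefSeq (Release 6 table, names only) named 21388 of 22608 transcripts, which were summed into 13568 genes. Genes with a mean log2(FPKM + 1) above 1.4 (the paper's cutoff) and status OK in all 4 libraries were tested with limma 3.58.1 in R 4.3.3 (two-sided, variance trend, FDR 0.01), fitted over all 4 libraries. The fit was checked on simulated data with 200 changed genes and no general shift between libraries, so that check does not cover the scaling. It recovered 74.5% of the genes changed by 1 on the log2 scale and 100% of those changed by 2. Python 3.11.15, pandas 2.3.3 and matplotlib 3.10.9 served for the rest. These p-values rest on the model, as exact permutation of 2 libraries against 2 cannot go below 0.333. The implied fragments of a value are the square of its ratio to the counting error that the bounds give, and cover counting error only.

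The 9 genes and all lists were chosen with earlier results of these data known. Named are the 9 genes, of each list up to 4 genes with the largest rise and 4 with the largest fall among those past the FDR without overlap between genotypes, the 3 genes most like the member with the largest rise and the one with the largest fall, and *Su(var)205*. The insulin-like peptide genes are all given, and these, *eIF4E1* and *Sod2* were added after their values were seen. *Lsp2* is also named outside this rule. Marker lists covered fat body, salivary glue, neurons, muscle, midgut, hemocytes and testis. The alternatives tried were a pseudocount of 0.1, one of 5, dropping the filter on level, requiring a mean above 5 FPKM, any status, a common median, quantile normalization, no variance trend, a replicate block, the highest transcript per gene and leaving out each library. Adding the unnamed *foxo* transcripts and testing transcripts singly were chosen after seeing the data.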

Additional observations from a re-analysis of the deposited data

How the results depend on the processing

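With the libraries set to a common median (rescaled), 1 of the 9 insulin signalling genes passed the FDR in limma (3 with FPKM as deposited), 1 of the 45 other insulin and TOR genes (11 as deposited) and 2135 of all tested genes (3908 as deposited), of which 44.8% were lower, against 83.1% as deposited. With quantile normalization the counts were 1, 1 and 1940 (46.4% lower). The log2 fold changes that changed sign were, rescaled and with quantile normalization in turn, 0.41 and 0.51 for *chico*, 0.14 and 0.10 for *Pi3K92E*, 0.070 and 0.22 for *ImpL2*, and 0.69 and 0.68 for *S6k*, and 0.19 for *Thor* with the rescaling only. Rescaling takes out the general fall by construction. Leaving out 1 library in turn gave 0 to 5 of the 9 genes, 0 to 20 of the other insulin and TOR genes and 0 to 5062 of all tested genes. Leaving out a wildtype library thus moved these counts further than either scaling did. The zeros came without wildtype replicate 1 and without wildtype replicate 2, with 3 of the 9 genes and 4465 and 4344 of all genes at an unadjusted p under 0.05. The highest transcript per gene gave 7 of the other insulin and TOR genes and 3153 of all tested genes, and the cause was not tested. The replicate block gave 6 of these, 2 of the 9 genes and 2913 of all genes. The titles share numbers but say nothing of shared larvae or days, and the deviations of same-numbered libraries correlated at 0.028 across genes, so the block was not taken as pairing. The pseudocounts, the filters, any status and no variance trend kept 2 or 3 of the 9 genes. A median gene at 3.66 to 9.46 FPKM limits what single transcripts can show.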

Other observations

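Genes of the Hippo pathway, which limits organ growth in parallel to insulin signalling, were mostly lower. Of 16 tested genes, 11 were lower in the HP1a mutant and 0 higher in limma, where 34.4% of all tested genes were lower. The median log2 fold change was -1.36, and 14 of the 16 lay below the median gene. *ds*, an atypical cadherin that feeds into the pathway, had 0.680 and 0.261 FPKM in the HP1a mutant and 5.97 and 6.29 FPKM in wildtype (log2 fold change -2.29, standard error 0.23, adjusted p = 0.00312 in limma). Its partner *ft* had 2.15 and 1.09 FPKM in the HP1a mutant and 8.29 and 8.18 FPKM in wildtype (-1.85). *mats*, a cofactor of the kinase Warts, had -1.73, and *jub*, which inhibits that kinase, had -1.71. With the libraries rescaled, 1 of the 16 passed (*ds*, lower), beside 10.1% lower among all tested genes.

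The genes most like *tobi* and *Ilp6* were sought by the root mean square difference of log2(FPKM + 1), centred per gene, over the 4 libraries and 9447 genes. *CG11050* was nearest to *tobi* (difference 0.032), with 59.0 and 67.1 FPKM in the HP1a mutant and 24.4 and 19.9 FPKM in wildtype, followed by *CG30479* (0.049) and *CG14615* (0.052). *CtsL1*, a cathepsin, was nearest to *Ilp6* (0.041), with 174 and 234 FPKM in the HP1a mutant and 794 and 725 FPKM in wildtype, followed by *Nepl6* (0.044) and *DCAF12* (0.046). With 4 libraries, such likeness describes these samples only.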
